A study of Mus musculus with 14 samples.

Results

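Neurotransmitter receptor genes encode the proteins through which serotonin, dopamine, noradrenaline, acetylcholine, GABA, glycine and glutamate act on a cell. The genes described here were chosen as the autosomal gene names in 6 chromatin immunoprecipitation (ChIP-seq) peak lists that begin with 1 of 14 receptor prefixes, such as Htr for serotonin and Grin for NMDA-type glutamate receptors. This rule found 67 of the 7096 names in the lists. Of these, 65 are receptor genes. The other two names are Grid2ip, which encodes a scaffold protein of glutamate synapses, and Grin1os, a transcript on the strand opposite Grin1; they are counted in the rule and left out of the counts of receptors. The RefSeq annotation holds 93 such receptor genes on mouse autosomes, so 28 were named in no list. Because presence in a peak list chose the genes, all counts of peaks are descriptions without a test.

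The cells were basal epidermal progenitors from the back skin of newborn mice (postnatal day 0) of the genotype Krt14-RFP; Krt10-H2B-GFP, sorted as Sca1 positive, high for Krt14-RFP and negative for Krt10-H2B-GFP. The groups used here are ChIP with antibodies to Ring1b, H2AK119ub and H3K27me3, with 2 replicates each, from 6000000 cells per ChIP for Ring1b and 400000 for each histone mark, and all groups share the genotype, age and gate. The keratin 14 promoter drives the red reporter in basal keratinocytes and the keratin 10 promoter drives the green one in suprabasal keratinocytes, so the gate rests on these 2 reporters and the surface protein Sca1. Nothing in the labels says that the 2 replicates are different animals, and their spread may be technical. No mutant or treated sample is in these 6 lists, and a peak shows where an antibody enriched chromatin, not how much RNA a gene makes.

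Receptors for these transmitters fall into 2 structural kinds. G-protein-coupled receptors signal through second messengers inside the cell, whereas ligand-gated channels are assembled from several subunits and pass ions when the transmitter binds. Both kinds are best known from neurons and muscle, and keratinocytes are known to use several of them. Ring1b is the catalytic subunit of Polycomb repressive complex 1, which places ubiquitin on a lysine of histone H2A (H2AK119ub). Polycomb repressive complex 2 places the H3K27me3 mark, and both complexes are known to hold developmental genes silent, with a preference for promoters rich in CG dinucleotides.

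Promoter sequence is shown first for genes that stand for each pattern of peaks described below. Each line gives the 250 bases before the RefSeq gene start on the mouse build GRCm38.p6, the RefSeq release of mm10, 5′ to 3′ on the strand of the gene, with every CG dinucleotide in capitals. Adra2a (chr19:54045009-54045258, plus strand), Grik3 (chr4:125490446-125490695, plus strand) and Drd4 (chr7:141291768-141292017, plus strand) were named in all 6 lists.
Adra2a: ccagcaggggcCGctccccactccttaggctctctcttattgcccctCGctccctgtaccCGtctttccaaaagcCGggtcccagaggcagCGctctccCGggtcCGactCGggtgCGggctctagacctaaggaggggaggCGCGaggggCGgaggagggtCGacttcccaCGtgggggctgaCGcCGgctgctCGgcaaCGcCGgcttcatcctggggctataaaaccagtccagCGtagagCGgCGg
Grik3: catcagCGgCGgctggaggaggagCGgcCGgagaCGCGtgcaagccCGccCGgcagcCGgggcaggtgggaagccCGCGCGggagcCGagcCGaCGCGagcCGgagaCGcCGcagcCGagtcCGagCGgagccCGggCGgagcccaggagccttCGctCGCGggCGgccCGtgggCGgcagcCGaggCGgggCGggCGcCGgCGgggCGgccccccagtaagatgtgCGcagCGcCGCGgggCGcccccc
Drd4: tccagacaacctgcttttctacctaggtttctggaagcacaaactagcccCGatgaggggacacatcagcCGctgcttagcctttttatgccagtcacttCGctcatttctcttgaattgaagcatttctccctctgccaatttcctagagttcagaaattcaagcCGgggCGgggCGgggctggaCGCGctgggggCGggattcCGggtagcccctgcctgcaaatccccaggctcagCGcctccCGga
These 250 bases held 22 CG in Adra2a, 42 in Grik3 and 12 in Drd4, against a median of 10.5 over the 16456 autosomal protein-coding genes with a window (interquartile range 3 to 19).

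Chrm2 (chr6:36387834-36388083, plus strand) and Htr2a (chr14:74640624-74640873, plus strand) were named for Ring1b and H3K27me3 and not for H2AK119ub. Drd2 (chr9:49340153-49340402, plus strand), Gabra5 (chr7:57510060-57510309, minus strand) and Htr1a (chr13:105443443-105443692, plus strand) were named for H3K27me3 alone.
Chrm2: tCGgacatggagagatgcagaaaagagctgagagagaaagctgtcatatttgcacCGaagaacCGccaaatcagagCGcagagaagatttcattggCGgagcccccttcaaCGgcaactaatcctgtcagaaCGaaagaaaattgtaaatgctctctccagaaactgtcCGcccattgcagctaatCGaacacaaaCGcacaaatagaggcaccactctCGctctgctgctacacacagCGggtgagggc
Htr2a: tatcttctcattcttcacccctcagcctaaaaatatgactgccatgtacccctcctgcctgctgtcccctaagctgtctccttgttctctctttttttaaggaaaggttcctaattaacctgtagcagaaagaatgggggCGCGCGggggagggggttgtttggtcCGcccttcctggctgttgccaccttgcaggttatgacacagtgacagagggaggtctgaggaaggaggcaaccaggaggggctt
Drd2: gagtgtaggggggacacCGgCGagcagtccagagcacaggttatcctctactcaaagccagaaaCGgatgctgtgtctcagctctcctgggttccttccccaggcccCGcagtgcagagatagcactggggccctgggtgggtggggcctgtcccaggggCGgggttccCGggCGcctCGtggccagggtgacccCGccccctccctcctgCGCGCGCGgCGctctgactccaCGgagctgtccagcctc
Gabra5: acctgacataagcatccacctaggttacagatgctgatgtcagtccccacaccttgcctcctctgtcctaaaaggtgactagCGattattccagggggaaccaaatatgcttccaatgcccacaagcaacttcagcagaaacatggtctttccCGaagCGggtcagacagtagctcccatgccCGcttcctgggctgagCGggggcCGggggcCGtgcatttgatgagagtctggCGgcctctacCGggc
Htr1a: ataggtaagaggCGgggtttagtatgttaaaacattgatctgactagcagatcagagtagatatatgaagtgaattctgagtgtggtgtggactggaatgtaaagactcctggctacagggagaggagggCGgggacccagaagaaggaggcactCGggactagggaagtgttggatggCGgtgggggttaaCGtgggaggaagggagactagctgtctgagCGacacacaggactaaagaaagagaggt
Chrm2 had 12 CG and Htr2a 4 CG in these bases, and the H3K27me3-only genes had 15 (Drd2), 9 (Gabra5) and 6 (Htr1a). The 4 CG of Htr2a were below the median of 10.5 over all genes but inside the interquartile range of 3 to 19. Htr2a had peaks of Ring1b and H3K27me3, but its Ring1b peaks were weak. Ranked by enrichment over input, they stood at the 2.19 percentile of the replicate 1 list and the 10.3 percentile of the replicate 2 list. In replicate 2 the Ring1b peak did not cover the gene start, while the H3K27me3 peak did. Chrna7 (chr7:63212527-63212776, minus strand) and Drd3 (chr16:43761971-43762220, plus strand) are shown because no list named them.
Chrna7: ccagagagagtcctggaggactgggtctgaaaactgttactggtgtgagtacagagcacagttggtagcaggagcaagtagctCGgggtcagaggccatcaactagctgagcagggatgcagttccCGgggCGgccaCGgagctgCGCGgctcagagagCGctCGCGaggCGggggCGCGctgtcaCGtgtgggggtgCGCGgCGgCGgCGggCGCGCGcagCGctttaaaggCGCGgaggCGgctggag
Drd3: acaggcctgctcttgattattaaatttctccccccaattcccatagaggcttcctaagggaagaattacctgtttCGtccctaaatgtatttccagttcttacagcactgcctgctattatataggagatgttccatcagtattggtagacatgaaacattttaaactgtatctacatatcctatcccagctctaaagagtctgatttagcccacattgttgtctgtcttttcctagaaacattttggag
Chrna7, without a peak in any list, had 25 CG, and Drd3, also without a peak, had 1. The windows cover 66 of the 93 receptor genes (71.0%), which is below the 80% set for a comparison of CG content between groups of genes, so none was made.

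Across the 93 annotated receptor genes, H3K27me3 was the widest of the 3. It was named in both replicates at 50 genes (53.8%), against 10.2% of the 20661 autosomal protein-coding genes. H2AK119ub was named in both replicates at 22 receptor genes (23.7%), against 9.01% of all genes, and Ring1b at 19 (20.4%), against 10.5% of all genes. At least 1 of the 6 lists named 65 receptor genes (69.9%), against 30.6% of all genes. A further 10 receptor genes had Ring1b in only 1 replicate, 12 had H2AK119ub in only 1 and 9 had H3K27me3 in only 1. Within single lists, Ring1b named 24 receptor genes in replicate 1 (18.5% of all genes were named in that list) and 24 in replicate 2 (12.2% of all genes). H2AK119ub named 23 in replicate 1 (10.1% of all genes) and 33 in replicate 2 (15.0% of all genes). H3K27me3 named 59 in replicate 1 (15.5% of all genes) and 50 in replicate 2 (10.3% of all genes). Peaks that the lists place at promoters gave 17 receptor genes for Ring1b (9.49% of all genes), 21 for H2AK119ub (7.18% of all genes) and 46 for H3K27me3 (9.03% of all genes), each in both replicates.

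**Figure D1:**
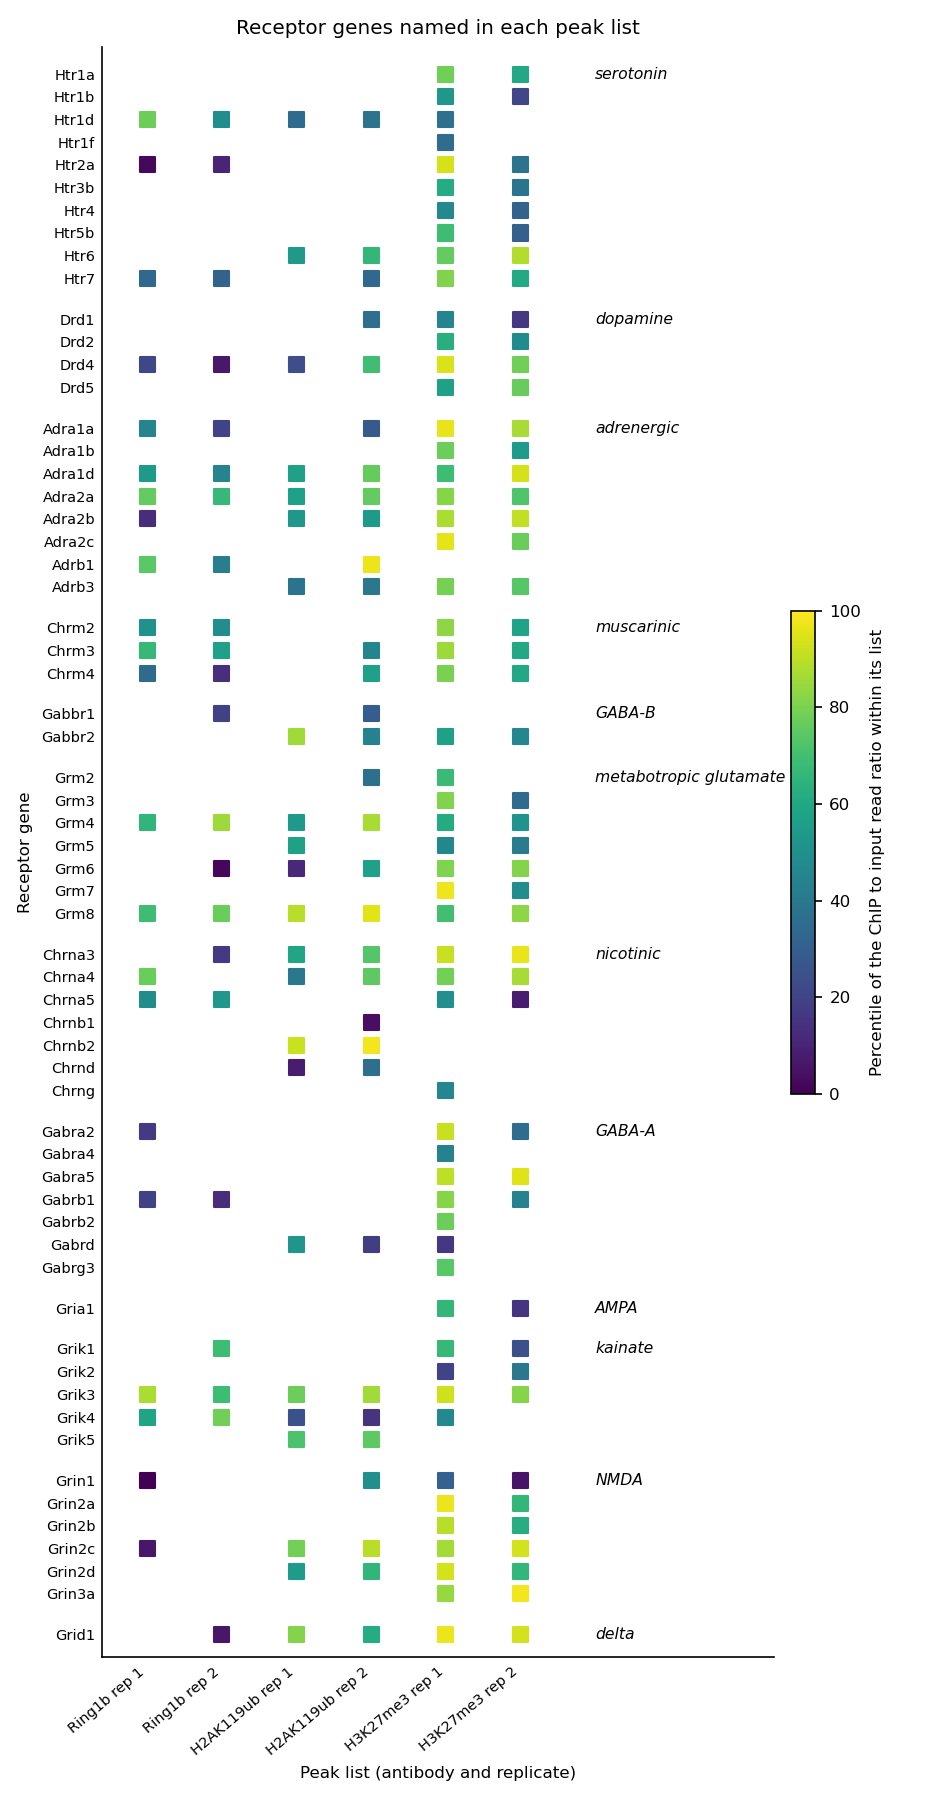
Each row is 1 of 61 of the 65 receptor genes named in a list, grouped by class, and each column is 1 list; a square marks a peak, coloured by the percentile of its ratio of ChIP to input reads among the autosomal peaks of that list (0 to 100). Among these 61 rows the Ring1b columns are filled at 22 and 22 genes, the H2AK119ub columns at 23 and 32 and the H3K27me3 columns at 55 and 46.

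The Ring1b count depends on how weak a peak is accepted. Each peak carries a p-value that the authors deposited, made by a test that no source used here states. With peaks of a deposited p of at most 0.001, 5 receptor genes had Ring1b in both replicates (5.38%), against 4.44% of all genes, which is close to the share over all genes. Under the same limit H2AK119ub was left at 13 receptor genes (14%), against 4.63% of all genes, and H3K27me3 at 50 (53.8%), against 10.2% of all genes. Among the receptor genes and the 2 other names, 9 of 25 in Ring1b replicate 1 and 8 of 24 in replicate 2 rested on a peak with a deposited p above 0.05, against 34.7% and 20.7% of all autosomal Ring1b peaks of those replicates. For H3K27me3 none of the 60 and 51 names did.

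Peaks were weighed by the ratio of ChIP to input reads that the lists count inside each peak, without scaling for library size, so a ratio is read only against other peaks of its own list. Ring1b had 4403 and 3012 autosomal peaks in replicates 1 and 2, H2AK119ub had 3755 and 5616, and H3K27me3 had 5793 and 3048. The median peak at a receptor name held 76 ChIP and 34 input reads in Ring1b replicate 1 and 49.5 ChIP and 29 input reads in replicate 2. For H2AK119ub it held 76 ChIP and 43 input reads in replicate 1 and 164 ChIP and 80 input reads in replicate 2. For H3K27me3 it held 728 ChIP and 65.5 input reads in replicate 1 and 424 ChIP and 84 input reads in replicate 2. The H3K27me3 ratios are therefore the best counted.

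H3K27me3 ratios at receptor names were above the middle of the whole list, and above that of its promoter peaks in replicate 1 only. A gene with several promoter peaks is given by the one with the highest ratio, so its value is set here against both all peaks and the peaks at promoters. The median ratio was 12.1 at receptor names, against 8.32 over all autosomal peaks, in replicate 1, and 5.11 against 4.70 in replicate 2. The autosomal promoter peaks of these lists had medians of 10.6 in replicate 1 and 5.14 in replicate 2. The median percentile of these peaks within their list was 78.5 in replicate 1 and 60 in replicate 2. Ring1b peaks at receptor names had medians of 2.37 and 2.16, against 2.40 and 2.28 over all peaks, and H2AK119ub peaks had 1.93 and 2.09, against 1.86 and 2.00. The promoter peaks had medians of 2.41 and 2.30 for Ring1b and of 1.90 and 2.11 for H2AK119ub. Ring1b and H2AK119ub at these genes were thus near the middle of their own lists. Replicate 1 gave the higher H3K27me3 ratio at 50 of 50 receptor genes, the higher Ring1b ratio at 13 of 19 and the higher H2AK119ub ratio at 3 of 22. The replicates of H3K27me3 thus gave ratios of a different size at the same genes. For each antibody the medians over all peaks differed between replicates in the same direction, so the offset was not particular to receptor genes.

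Peaks at receptor genes lay at promoters more often than peaks of the lists as a whole. The receptor rows were chosen by a gene name, while the rows of the whole list were taken with or without one. The 2 shares are therefore of unlike sets of rows, and their difference was not tested. For H3K27me3 the lists place 69.3% and 86.0% of the rows naming a receptor name at a promoter, against 46.2% and 61.9% of all autosomal rows. The shares were 88.0% and 91.7% against 78.5% and 76.4% for Ring1b, and 62.5% and 74.0% against 49.6% and 47.1% for H2AK119ub. The median H3K27me3 peak length was 6098.5 and 4040 bp at receptor names, against 4611 and 4273.5 bp over all peaks. Where a RefSeq window gave a start, it lay inside the peak at 16 of 20 names in Ring1b replicate 1 and 10 of 17 in replicate 2. For H2AK119ub the start lay inside at 9 of 17 names in replicate 1 and 19 of 27 in replicate 2, and for H3K27me3 at 36 of 42 and 27 of 34.

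Only 6 receptor genes carried all 3 in both replicates, namely Adra1d, Adra2a, Drd4, Grik3, Grm4 and Grm8 (6.45%, against 4.13% of all genes). The most frequent pattern was H3K27me3 in both replicates with Ring1b and H2AK119ub in none, found at 18 receptor genes (19.4%), against 1.56% of all genes. Ring1b with H3K27me3 and no H2AK119ub was found at 6 receptor genes (6.45%), against 0.397% of all genes. H2AK119ub with H3K27me3 and no Ring1b was found at 4 (4.30%), against 0.997% of all genes, and H2AK119ub alone at 3 (3.23%), against 0.876% of all genes. No receptor gene had Ring1b alone, against 2.80% of all genes, and none had Ring1b with H2AK119ub and no H3K27me3, against 0.731%. With peaks of a deposited p of at most 0.001, 2 receptor genes kept all 3 (2.15%, against 2.18% of all genes) and 34 had H3K27me3 only (36.6%, against 3.98% of all genes). The union lists, which take a peak from either replicate, gave 19 receptor genes with all 3 (20.4%, against 7.09% of all genes) and 23 with H3K27me3 only (24.7%, against 4.2% of all genes). Ring1b in a union list was found at 29 receptor genes (31.2%, against 20.1% of all genes), H2AK119ub at 33 (35.5%, against 15.9%) and H3K27me3 at 59 (63.4%, against 15.6%). In the replicate 1 lists alone 11 receptor genes had all 3 (11.8%, against 5.54% of all genes) and 27 had H3K27me3 only (29.0%, against 5.72%). In the replicate 2 lists alone 13 had all 3 (14%, against 5.06%) and 20 had H3K27me3 only (21.5%, against 2.03%).

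The share of genes at which a second antibody joined a first was set beside the same share over all genes. Of the 50 receptor genes with H3K27me3 in both replicates, 16 had Ring1b in both (32.0%, against 51.7% of all 2110 H3K27me3 genes) and 25 had it in none (50.0%, against 33.7%). H2AK119ub was in both replicates at 16 of the 50 (32.0%, against 58.1%) and in none at 26 (52%, against 22.4%). Of the 19 receptor genes with Ring1b, 16 had H3K27me3 in both replicates (84.2%, against 50.2% of all 2171 Ring1b genes) and 1, Adrb1, had it in none (5.26%, against 40.7%). H2AK119ub was in both replicates at 8 of the 19 (42.1%, against 50.4%) and in none at 6 (31.6%, against 33.0%), which is near the share over all Ring1b genes. Of the 22 receptor genes with H2AK119ub, 8 had Ring1b in both replicates (36.4%, against 58.8% of all 1862 H2AK119ub genes) and 16 had H3K27me3 in both (72.7%, against 65.8%). At receptor genes Ring1b was thus rarely seen without H3K27me3, while H3K27me3 was often seen without Ring1b. These shares come from the same lists as the choice of genes and were not tested.

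**Figure D2:**
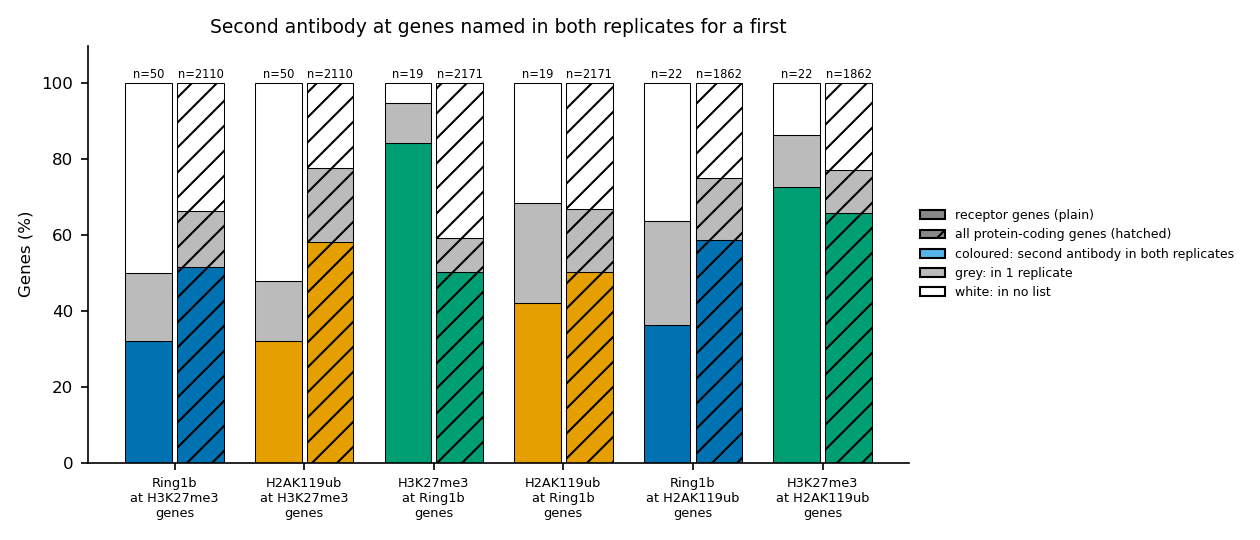
Bars give, in percent, how often a second antibody was found at genes named in both replicates for a first, for receptor genes (plain, left of each pair) and all autosomal protein-coding genes (hatched, right). Colour marks the second antibody in both replicates, grey in 1 replicate and white in no list; of receptor genes with Ring1b 84.2% also had H3K27me3, against 50.2% of all Ring1b genes.

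Where antibodies shared a receptor gene, their peaks lay together. The Ring1b and H3K27me3 peaks overlapped in every pair of replicates at 16 of 16 genes, and the H2AK119ub and H3K27me3 peaks at 17 of 17 names, Grid2ip among them. Ring1b and H2AK119ub peaks overlapped in every pair at 7 of 8 genes. The 2 replicates of an antibody had overlapping peaks at every receptor gene it named in both. The peaks that gave the ratios overlapped at all of these genes for Ring1b and H2AK119ub and at 49 of 50 for H3K27me3, Grik2 being the exception.

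The 6 genes with all 3 in every list include 4 that were named in most lists or ranked highest within their receptor class: Grik3, Adra2a, Grm8 and Drd4. Grik3, a kainate receptor subunit, had the highest Ring1b ratio of any receptor name, 3.92 in replicate 1 (188 ChIP and 48 input reads; chr4:125488668-125491841, as the authors' lists give it), and 2.77 in replicate 2. Its H2AK119ub ratios were 2.23 and 2.61, and its H3K27me3 ratios were 15.7 (3637 ChIP and 232 input reads) and 6.12 (2337 and 382). The H3K27me3 peaks of Grik3 spanned 22493 and 20478 bp, against 3174 and 2701 bp for Ring1b, so the histone mark reached far beyond the Ring1b peak on both sides.

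Adra2a, an inhibitory alpha-2 adrenergic receptor, had Ring1b ratios of 3.16 and 2.71, H2AK119ub ratios of 1.94 and 2.37 and H3K27me3 ratios of 12.8 and 5.66. All 6 peaks of Adra2a covered its start, and the H3K27me3 peak of replicate 1 (chr19:54042359-54054223) contained the Ring1b peak of the same replicate (chr19:54044661-54048830). Grm8, a presynaptic metabotropic glutamate receptor, had Ring1b ratios of 2.90 and 3.10, H2AK119ub ratios of 2.56 and 3.10 and H3K27me3 ratios of 10.7 and 6.17. Grm8 stood at the 89.1 and 95.7 percentile of the H2AK119ub lists. Adra1d, an alpha-1 adrenergic receptor, had Ring1b ratios of 2.48 and 2.19, H2AK119ub ratios of 1.94 and 2.38 and H3K27me3 ratios of 10.5 and 6.99. Its H3K27me3 peak was 24865 bp long in replicate 1, the longest used for a receptor gene, against 5828 bp in replicate 2.

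Drd4, a D2-like dopamine receptor, combined strong H3K27me3 with weak Ring1b. Its H3K27me3 ratios were 16.6 (664 ChIP and 40 input reads) and 5.92 (438 and 74), while its Ring1b ratios were 1.88 (94 ChIP and 50 input reads, deposited p 0.0493) and 1.47 (88 and 60 reads, deposited p 0.0528). The Ring1b peaks of Drd4 stood at the 21.2 and 6.51 percentile of their lists and began 292 and 59 bp after the gene start. Grm4, another presynaptic metabotropic glutamate receptor, had Ring1b ratios of 2.79 (78 ChIP and 28 input reads) and 3.64 (40 and 11 reads). The lists class the Ring1b peaks of Grm4 as distal (chr17:27512032-27513733 in replicate 1). The H2AK119ub and H3K27me3 peaks used for its ratios were at a promoter. The Ring1b peaks of Grm4 still overlapped a peak of each mark in every pair of replicates. Its H2AK119ub ratios were 1.91 and 2.63 and its H3K27me3 ratios were 9.58 and 4.78.

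**Figure D3:**
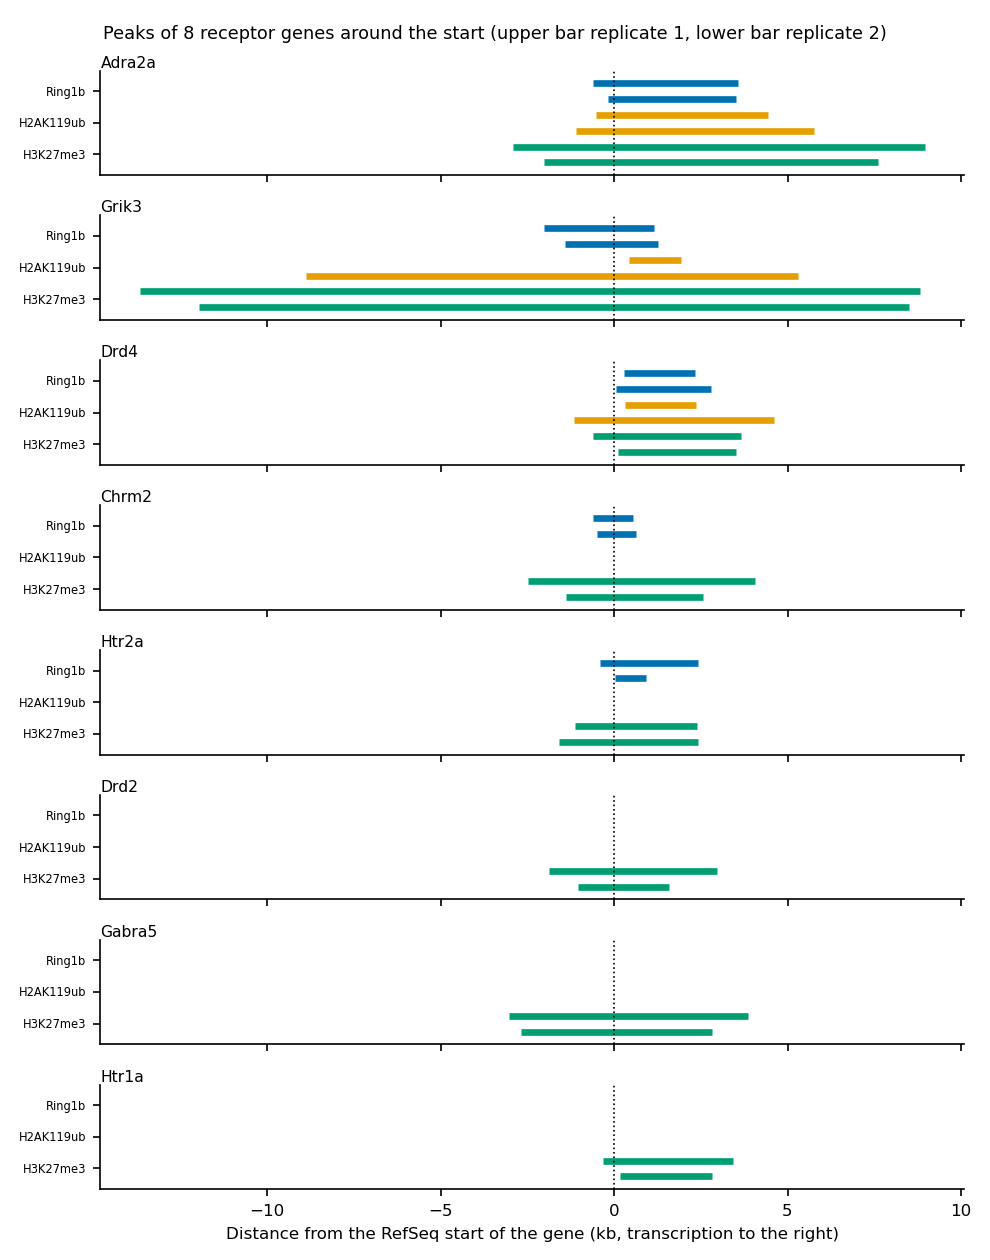
The peaks used for the ratios at 8 receptor genes are drawn as bars by distance from the RefSeq gene start (kb, transcription to the right), with replicate 1 above replicate 2 for each antibody. H3K27me3 of Grik3 extends over 22493 and 20478 bp and its Ring1b peaks over 3174 and 2701 bp, while Drd2, Gabra5 and Htr1a show H3K27me3 bars only.

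The 4 receptor genes with both marks in both replicates and Ring1b in no list were Htr6, Grin2d, Gabbr2 and Adrb3. Htr6, a serotonin receptor that raises cyclic AMP, had H2AK119ub ratios of 1.91 and 2.22 and H3K27me3 ratios of 11.7 and 6.55. Grin2d, an NMDA receptor subunit, had H2AK119ub ratios of 1.92 and 2.21 and H3K27me3 ratios of 16.0 and 5.35. Gabbr2, the subunit through which the GABA-B receptor couples to G proteins, had H2AK119ub ratios of 2.44 and 1.94 and H3K27me3 ratios of 9.11 and 4.53. Adrb3, the beta-3 adrenergic receptor of fat tissue, had H2AK119ub ratios of 1.74 and 1.89 and H3K27me3 ratios of 12.3 and 5.71. In replicate 1 the H3K27me3 ratio exceeded the list median at all 4 genes and the H2AK119ub ratio at 3 of them, Adrb3 excepted. In replicate 2 the H3K27me3 ratio did so at 3 of them, Gabbr2 excepted, and the H2AK119ub ratio at Htr6 and Grin2d, with Gabbr2 and Adrb3 below the median of 2.00. Another 6 receptor genes, Adra2b, Chrna3, Chrna4, Grid1, Grin2c and Grm6, had both marks in both replicates and Ring1b in 1 replicate.

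Ring1b with H3K27me3 and no H2AK119ub peak was found at 6 receptor genes, which included Chrm2, Chrna5, Gabrb1 and Htr2a. Over the 6 genes the median Ring1b ratios were 2.11 and 2.08, against 2.84 and 2.74 at the 6 genes with all 3, and the median percentiles were 33.9 and 39.3, against 67.1 and 67.8. The median H3K27me3 ratios were 12.9 and 4.32, against 11.7 and 6.02 at the genes with all 3. Htr2a, the serotonin receptor on which classical psychedelics act, had Ring1b ratios of 1.5 (99 ChIP and 66 input reads, deposited p 0.399) and 1.56 (39 and 25 reads, deposited p 0.144), beside H3K27me3 ratios of 16.1 and 4.2. Chrm2, the muscarinic receptor that slows the heart, had Ring1b ratios of 2.42 and 2.26 and H3K27me3 ratios of 13.1 and 5.05. Chrna5, a neuronal nicotinic subunit, had Ring1b ratios of 2.37 and 2.35, each replicate with a deposited p at or below 0.001, and lower H3K27me3 ratios of 8.24 and 2.90. The Ring1b peaks in this group thus differed in strength from Chrna5 to Htr2a.

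The 18 genes with H3K27me3 only included the adrenergic receptor genes Adra1b and Adra2c, the dopamine receptor genes Drd2 and Drd5, the serotonin receptor genes Htr1a, Htr1b and Htr4 and the channel subunit genes Gabra5, Gria1, Grik2, Grin2a, Grin2b and Grin3a. Of the 18, 11 encode G-protein-coupled receptors and 7 encode channel subunits. Their ratios ran between 5.70 and 18.8 in replicate 1, with a median of 12, and between 3.25 and 7.94 in replicate 2, with a median of 4.77. Grm7, a presynaptic glutamate receptor, had the highest ratio in replicate 1, 18.8 (565 ChIP and 30 input reads), and 4.64 in replicate 2 (334 and 72). Grin3a, an NMDA receptor subunit that lowers calcium entry, had 13.2 in replicate 1 and the highest ratio of replicate 2, 7.94 (548 ChIP and 69 input reads). Grin2a, the NMDA receptor subunit that rises as the brain matures, had 18.6 and 5.36. Gabra5, a GABA-A subunit of hippocampal neurons, had 14.9 and 7.23, and Grik2, a kainate subunit, had the lowest value of replicate 1, 5.70 in a promoter peak. Its value in replicate 2, 4.25, is that of a gene body peak that does not overlap the first. A gene at the top of 1 replicate was therefore not always at the top of the other.

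H3K27me3 ratios at receptor genes were compared by whether Ring1b was named. The 16 genes with Ring1b in both replicates had median H3K27me3 ratios of 12.8 and 5.11, the 9 with Ring1b in 1 replicate had 13.8 and 6.43, and the 25 with Ring1b in none had 11.7 and 4.64. The ranges overlapped widely, between 8.24 and 17.9 with Ring1b in both replicates and between 5.70 and 18.8 with Ring1b in none, in replicate 1. The median peak lengths were 7554 and 4486 bp with Ring1b in both replicates, 7480 and 5289 bp with Ring1b in 1 and 5873 and 3415 bp with Ring1b in none. They were thus shortest where no list named Ring1b.

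**Figure D4:**
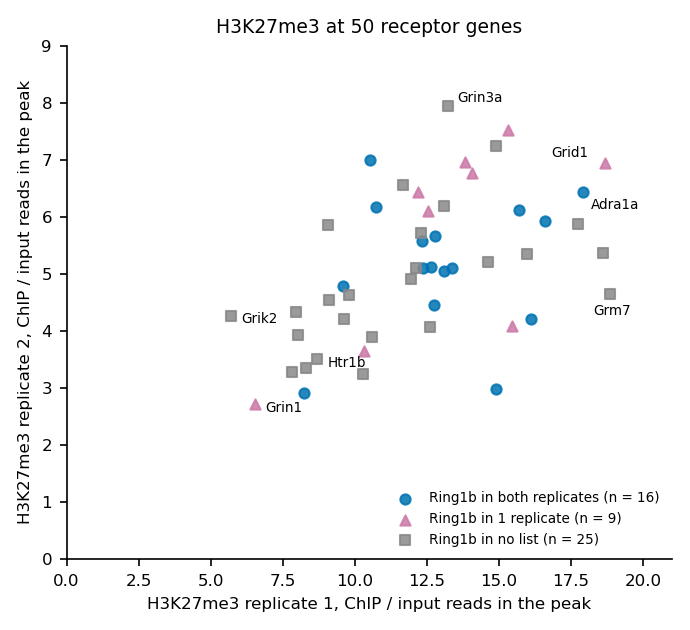
Each point is 1 of the 50 receptor genes with H3K27me3 in both replicates, placed by the ratio of ChIP to input reads in replicate 1 (horizontal) and replicate 2 (vertical), and marked by the number of Ring1b replicates that named it. All points have the higher ratio in replicate 1, and genes with Ring1b in both replicates (8.24 to 17.9 in replicate 1) lie among those with Ring1b in none (5.70 to 18.8).

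G-protein-coupled receptor genes carried H3K27me3 and Ring1b more often than channel subunit genes, with a smaller gap for H2AK119ub. Of 40 annotated G-protein-coupled receptor genes, 34 were named in a list, against 30.6% of all genes. In both replicates 13 had Ring1b (32.5%, against 10.5% of all genes), 11 had H2AK119ub (27.5%, against 9.01%) and 29 had H3K27me3 (72.5%, against 10.2%). Of 53 channel subunit genes, 31 were named, 6 had Ring1b (11.3%), 11 had H2AK119ub (20.8%) and 21 had H3K27me3 (39.6%). Ring1b at channel genes was thus near the share over all genes. With a deposited p of at most 0.001, Ring1b was left at 3 of 40 G-protein-coupled receptor genes and 2 of 53 channel genes, against 4.44% of all genes. H2AK119ub was left at 7 of 40 and 6 of 53, against 4.63% of all genes. Under this limit the Ring1b gap between the kinds thus rested on 3 and 2 genes. All 3 were found at 5 G-protein-coupled receptor genes and 1 channel gene, Grik3. For H3K27me3 the shortfall of channels lay mostly in nicotinic, GABA-A and glycine subunits. Of the 17 ionotropic glutamate receptor genes, 14 were named (against 30.6% of all genes) and 12 had H3K27me3 (70.6%, against 10.2%). Ring1b was at 3 of these 17 (17.6%, against 10.5%), so its share was below that of G-protein-coupled receptor genes here too. The difference between the 2 kinds was not tested.

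**Figure D5:**
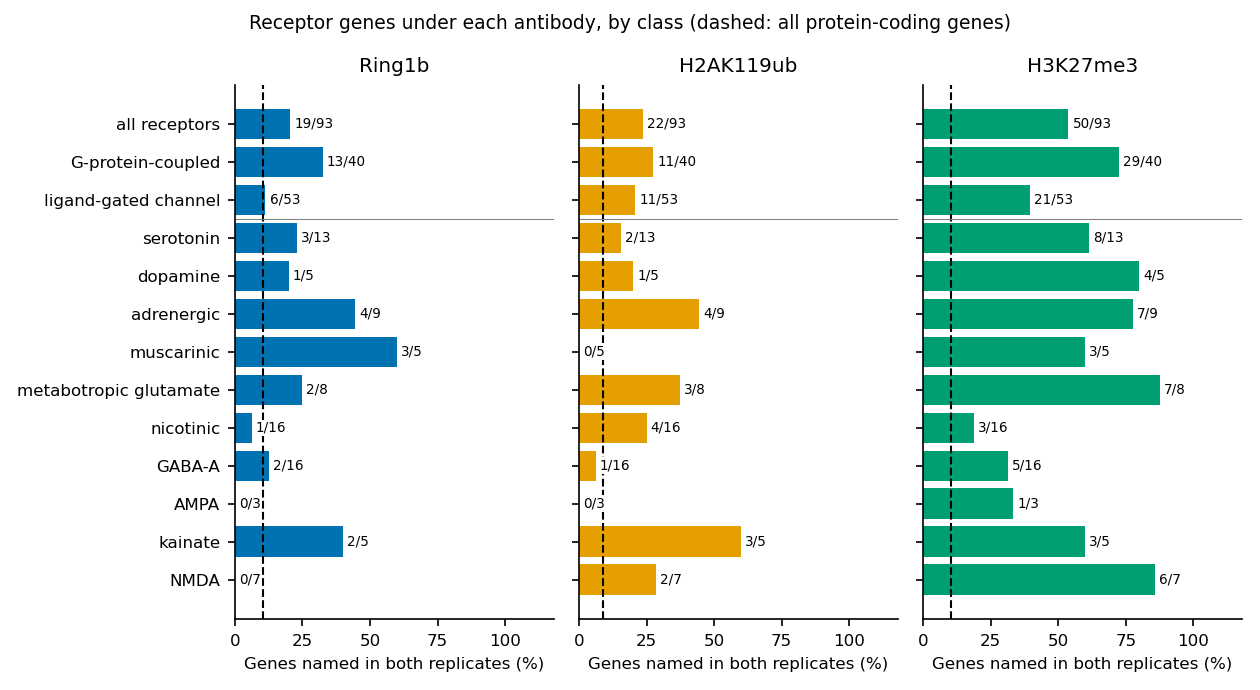
Bars give the percent of annotated autosomal receptor genes named in both replicates for Ring1b, H2AK119ub and H3K27me3, by class (classes of 3 or more genes), with the count beside each bar and a dashed line at the share over all protein-coding genes (10.5%, 9.01% and 10.2%). H3K27me3 was at 29 of 40 G-protein-coupled receptor genes and at 21 of 53 channel genes.

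Among the 25 G-protein-coupled receptor genes for monoamines, 8 had Ring1b in both replicates (32%, against 10.5% of all genes). H2AK119ub was in both at 7 (28%, against 9.01%) and H3K27me3 at 18 (72%, against 10.2%). All 6 alpha-adrenergic receptor genes had H3K27me3, and 3 of them had Ring1b and 3 had H2AK119ub. Adra1a, an alpha-1 receptor of smooth muscle, had H3K27me3 ratios of 17.9 and 6.43 and Ring1b ratios of 2.30 and 1.73, a mean of 2.02 ± 0.405 (SD, n = 2). Among the beta-adrenergic genes, Adrb1, the main beta receptor of the heart, had Ring1b ratios of 3.10 and 2.13, an H2AK119ub peak in replicate 2 only and no H3K27me3. Adrb3 had both marks and no Ring1b. Dopamine receptors had H3K27me3 at 4 of 5 genes (80%, against 10.2% of all genes), and Drd3 was named in none.

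Serotonin receptors had H3K27me3 in both replicates at 8 of 13 genes (61.5%, against 10.2% of all genes). Ring1b was in both at 3 (23.1%, against 10.5%) and H2AK119ub at 2 (15.4%, against 9.01%). Htr7, a serotonin receptor that raises cyclic AMP, had Ring1b ratios of 2.08 and 1.93, an H2AK119ub ratio of 1.82 in replicate 2 and H3K27me3 ratios of 12.6 and 5.12. Htr1d, the presynaptic receptor on which triptans act, had Ring1b ratios of 3.23 and 2.26 and H2AK119ub ratios of 1.70 and 1.88, with H3K27me3 in replicate 1 alone. Htr2b, Htr3a and Htr5a were named in no list. No serotonin receptor gene had all 3 in both replicates.

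Muscarinic receptors were divided between 3 genes with Ring1b and H3K27me3 (Chrm2, Chrm3 and Chrm4) and 2 named in no list (Chrm1 and Chrm5). Chrm3, the muscarinic receptor of glands and smooth muscle, had Ring1b ratios of 2.83 and 2.43, H3K27me3 ratios of 13.4 and 5.11 and an H2AK119ub ratio of 1.96 in replicate 2. No muscarinic gene had H2AK119ub in both replicates. Of the 8 metabotropic glutamate receptor genes, 7 had H3K27me3 in both replicates (87.5%, against 10.2% of all genes). Of the GABA-B receptor genes, Gabbr2 had both marks and Gabbr1, the subunit that binds GABA, had Ring1b and H2AK119ub in replicate 2 only.

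NMDA receptor subunits had H3K27me3 in both replicates at 6 of 7 genes (85.7%, against 10.2% of all genes) and Ring1b in both at none (against 10.5%). Grin2c, the NMDA subunit of cerebellar granule cells, had H2AK119ub ratios of 2.25 and 2.72 and H3K27me3 ratios of 13.8 and 6.97, with a Ring1b ratio of 1.60 (deposited p 0.276) in the gene body in replicate 1 only. Grin1, the subunit that every NMDA receptor needs, had the lowest H3K27me3 ratios of the class, 6.53 and 2.72. Grin3b, which resembles Grin3a in sequence, was named in no list. Grid1, a delta receptor, had H3K27me3 ratios of 18.7 and 6.94. Of 3 AMPA receptor genes Gria1 alone was named, with H3K27me3 ratios of 10.3 and 3.25.

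All 5 kainate receptor genes were named, against 30.6% of all genes. In both replicates 3 had H2AK119ub (60%, against 9.01%), 3 had H3K27me3 (60%, against 10.2%) and 2 had Ring1b (40%, against 10.5%). Grik4 had Ring1b in the gene body in both replicates, with ratios of 2.59 (chr9:42897137-42898070) and 3.17, and H2AK119ub at its promoter, with 1.60 and 1.62. Grik5 had H2AK119ub alone, and not at its promoter. The lists class its peak as distal in replicate 1 and gene body in replicate 2, beginning 62174 and 61362 bp after the gene start. The kainate class was the only one of the channel classes with a gene under all 3.

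GABA-A subunit genes lie in clusters, and the peaks did not follow a whole cluster. On chromosome 11, Gabrb2 had H3K27me3 in replicate 1, while Gabra6 was named in no list. On chromosome 5, Gabrb1 had Ring1b and H3K27me3, Gabra2 had H3K27me3 in both replicates, Gabra4 had it in replicate 1 and Gabrg1 was named in none. On chromosome 7, Gabra5 had H3K27me3 in both replicates and Gabrg3 in replicate 1. Gabrb1 had Ring1b ratios of 1.85 (deposited p 0.231) and 1.61 (deposited p 0.0808) and H3K27me3 ratios of 12.8 and 4.45. Gabrd, the delta subunit of GABA-A receptors outside synapses, had H2AK119ub in both replicates and H3K27me3 in replicate 1. The 3 rho subunit genes, Gabrp and both autosomal glycine receptor genes, Glra1 and Glra3, were in no list.

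Nicotinic subunits had the fewest named genes of the large classes, 7 of 16, against 30.6% of all genes. In both replicates 1 had Ring1b (6.25%, against 10.5%), 4 had H2AK119ub (25%, against 9.01%) and 3 had H3K27me3 (18.8%, against 10.2%). On chromosome 9, Chrna5 had Ring1b and H3K27me3 and Chrna3 had both marks, while the neighbouring Chrnb4 was named in none. Chrna4, which with Chrnb2 forms the main nicotinic receptor of the brain, had H2AK119ub ratios of 1.76 and 2.36 and H3K27me3 ratios of 12.2 and 6.43, with a Ring1b ratio of 3.22 in replicate 1 only. Chrnb2 had H2AK119ub alone, with the highest ratio for that antibody at a receptor gene in each replicate, 2.69 (35 ChIP and 13 input reads; exact 95% interval of the read ratio 1.39 to 5.55) and 3.69 (48 and 13 reads; 1.97 to 7.43). These intervals cover counting error only, and reads are not independent molecules.

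Of the 5 subunits of the muscle receptor, Chrnd had H2AK119ub in both replicates, Chrnb1 had it in replicate 2, Chrng had H3K27me3 in replicate 1, and Chrna1 and Chrne were named in none. The Chrnd peaks ended at 87188893 and 87189051 on chromosome 1, outside the gene (87190597 to 87200070). Replicate 1 had a deposited p of 0.0689, and the replicate 2 row also names another gene. The Chrnb1 peak (chr11:69797449-69805190, deposited p 0.161) also lay outside its gene (69784036 to 69795966), in a row that names other genes too. The nicotinic subunit genes Chrna7 and Chrna9 were also in no list. The nicotinic class thus had no gene under all 3.

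The label of the cells was read against marker genes, as a peak or no peak. Of 5 basal keratinocyte markers, Krt5, Krt14, Trp63 and Itga6 had no peak in any list and Col17a1 had Ring1b in 1 replicate. Of 4 markers of suprabasal keratinocytes, which the gate is meant to leave out, Krt1 had H2AK119ub and Krt10 had H3K27me3 in both replicates, and Ivl and Flg had no peak. All 4 Merkel cell markers had a peak, with Atoh1, Krt8 and Sox2 under all 3 in both replicates, and the nerve and glia genes Sox10 and Tubb3 had H3K27me3 in both. Of 4 melanocyte markers, Mitf had H3K27me3 in 1 replicate and Tyr, Pmel and Dct had none. The part of any other cell type in the receptor peaks was not tested.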

How the data were processed

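ChIP-seq peak lists of 6 samples were used, Ring1b, H2AK119ub and H3K27me3 with 2 replicates each. The other 8 samples, H3K27ac, H3K4me1, H3K4me3 and input, were not analysed here. The deposited lists were called for each replicate and give ChIP and input read counts on each strand within each peak, the highest coverage in the peak (the deposited signal, not used further) and a p-value from the authors, per the file headers. The submitters' processing notes name the build mm10 and, with no role, MACS2 2.1.0, the aligners Bowtie2 2.2.3 and Bowtie 1.1.1, SAMtools 0.1.19, and Trim Galore 0.4.1. Not given in the sources used here are the step that made the lists, the library totals and the base of the coordinates. A row comparison showed that the deposited union lists hold every replicate 1 peak plus some of replicate 2. No column belonged to a sample outside the series (0 columns).

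Names were split on slashes and matched to RefSeq GRCm38.p6 for the 19 autosomes, 6910 by symbol and 173 by synonym, with 13 unmatched. A gene was named for an antibody when both replicate lists held it. Its ratio is ChIP over input counts, both strands summed, in the promoter peak with the highest ratio, or in any peak where none was at a promoter, with no scaling for depth, so differences in depth between ChIP and input shift every ratio of a list alike. Some genes are counted but not reported by name here. No test was made, since presence in the lists chose the genes; counting was checked on simulated lists. Exact binomial 95% intervals cover counting error only. The members and lists were chosen with earlier results of these data known. The rule named the genes with all 3 antibodies, those with both marks and no Ring1b, and the leading gene of each class; further genes given values, and the promoters shown, were picked after their values were seen. Alternatives were single replicates, promoter peaks, a deposited p of at most 0.001, the union lists, overlap of replicate peaks, receptors only, chromosome X added, and other ways of taking the ratio. Python 3.11.15, pandas 2.3.3, numpy 2.4.6, scipy 1.17.1 and matplotlib 3.10.9 were used.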

Additional observations from a re-analysis of the deposited data

Results flagged for a closer look

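Of 7 receptor genes on chromosome X, which the autosomal counts leave out, 4 were named in a list, and their peaks are given here because no count above includes them. Htr2c, a serotonin receptor of the choroid plexus, had H3K27me3 ratios of 11.7 (691 ChIP and 59 input reads) and 5.35 (433 and 81). Gria3, an AMPA receptor subunit, had H3K27me3 ratios of 9.14 (795 ChIP and 87 input reads) and 4.36 (240 and 55), and a Ring1b ratio of 3.38 in replicate 1 (44 and 13). The neighbouring GABA-A subunit genes Gabra3 and Gabrq had H3K27me3 in replicate 1 only, with ratios of 10.4 (188 and 18 reads) and 11.1 (144 and 13). The H3K27me3 peaks of chromosome X had median ratios of 8.26 in replicate 1 and 4.38 in replicate 2.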

How the results depend on the processing

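Over the 67 names, a deposited p of at most 0.001 left 5 with Ring1b, against 19 without it, 14 with H2AK119ub, against 23, and 2 with all 3, against 6. It gave 8 with both marks and no Ring1b (5 without it), 2 with Ring1b and H3K27me3 only (6), 34 with H3K27me3 only (18) and 1 with H2AK119ub only (3). G-protein-coupled receptors were left with 3 Ring1b and 7 H2AK119ub genes, channels with 2 and 6, and the median Ring1b ratio was 2.63 in place of 2.36. The union lists gave 30 names with Ring1b, 35 with H2AK119ub, 19 with all 3, 10 with both marks and no Ring1b, 20 G-protein-coupled receptors with H2AK119ub and 13 channels with Ring1b. Divided by the median of its list, the ratio was 1.01 for Ring1b, 1.11 for H2AK119ub and 1.33 for H3K27me3. The cause of these shifts was not tested, beyond fewer or more peaks entering the count. With replicate 1 or 2 left out, counts ran between 24 and 35 for H2AK119ub, 11 and 13 for all 3, 10 and 11 for both marks and no Ring1b, 7 and 12 for Ring1b and H3K27me3 only, 3 and 7 for H2AK119ub only, 12 and 19 for G-protein-coupled receptors with H2AK119ub and 9 and 10 for channels with Ring1b. H3K27me3 stayed between 51 and 60 names. Of 144 alternative values, 114 were within 1.5 times of the reported count or within the spread of the replicates, and 30 moved. For a ratio this spread is the SD of the medians of the 2 single replicates. Leaving out 1 replicate therefore stays within it almost by construction. The median H3K27me3 ratio without replicate 1, 5.11 against 8.96, was counted as within it (SD 5.26). No paired analysis was possible because no result comes from a test. The promoter sequence alternative was not run, since too few genes had a window. The depth of the libraries is unknown, and the read counts in each peak limit the precision of its ratio.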

Other observations

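Genes for making and moving transmitters, and for anchoring their receptors, were counted in the same lists. Of 35 genes of transmitter synthesis and transport, 27 were named (77.1%, against 30.6% of all autosomal protein-coding genes). In both replicates 9 had Ring1b (25.7%, against 10.5%), 12 had H2AK119ub (34.3%, against 9.01%) and 14 had H3K27me3 (40%, against 10.2%). All 3 were found at 5 of them (14.3%, against 4.13%), which included Gad1 and Gad2, the enzymes that make GABA, and Slc32a1, which loads GABA and glycine into vesicles. H3K27me3 alone was found at 2, Slc6a11 and Slc18a2 (5.71%, against 1.56%), beside 18 of 93 receptor genes (19.4%). Of 34 genes for receptor scaffolds and auxiliary subunits, 26 were named (76.5%, against 30.6%), 7 had Ring1b (20.6%, against 10.5%), 12 had H2AK119ub (35.3%, against 9.01%) and 21 had H3K27me3 (61.8%, against 10.2%). All 3 were found at 5 of the 34 (14.7%, against 4.13%), which included Nrxn2, a neurexin that organises the presynaptic side of a synapse. H3K27me3 alone was also found at 5 (14.7%, against 1.56%), which included Dlg4, the postsynaptic scaffold PSD-95. Thus H3K27me3 alone was not particular to receptor genes. These lists were written with earlier results known and were not tested against the receptors.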
